A study of Arabidopsis thaliana with 72 samples.

Results

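RNA of mock-painted wild-type Arabidopsis leaves harvested 24 h after painting was compared with that of leaves harvested 12 h after painting. The comparison rests on the 6 Col-0 libraries labelled DMSO at these times, 3 at 24 h and 3 at 12 h, out of 72 RNA-seq libraries in the series. They were chosen by genotype, treatment and time alone. The series asked what follows in leaves when plasmodesmata, the channels that join neighbouring plant cells, are closed, and it crossed 3 genotypes with painting by estradiol or mock solution and harvest at 12, 24, 48 and 72 h. All plants grew for 5 weeks on agar plates with 1% sucrose under 10 h of light a day at 22 °C, so the tissue at both times had an outside supply of sugar. Mock leaves at 24 h and at 12 h were brushed on both faces with 0.1% DMSO and 0.01% Silwet L-77, a wetting agent, and had no estradiol. Each sample was made from 2 leaves from 4 plants. The direction of each change was then checked in the DMSO leaves of icals3m and PD-plug, lines that carry estradiol-inducible LexA constructs meant to close plasmodesmata, with 3 libraries for each line and time. The labels give hours after painting and not the hour of the day, so the time since painting and the time of day cannot be told apart. They call the replicates biological without saying whether a separate plate or day lay behind each, so p-values measure the spread between these samples.

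Leaf RNA follows the day through light and through the circadian clock, a set of regulators that repress each other in turn. CCA1 and LHY, Myb-type factors that accumulate around dawn, repress evening genes, whose promoters often carry a short motif called the evening element. The pseudo-response regulators PRR9, PRR7, PRR5 and TOC1 then follow each other from morning to evening and repress CCA1 and LHY, and the evening complex of ELF3, ELF4 and LUX acts in the night. In a green leaf the clock and light together time the genes of light capture, starch turnover, cold tolerance, growth and defence.

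Each of the 6 libraries held between 38303941 and 52289492 counts, with a median of 50599838 counts, and 21241 of 33602 genes passed the filter on low counts. At this depth the floor of 3 counts lay at 0.0742 CPM or below (CPM, counts per 1000000 counts of the library's total after TMM scaling, described below), which covers counting error only. Replicates of a group correlated at 0.9762 to 0.9814 in log2 CPM across genes, and no pair held identical values. The label of leaf was checked with marker genes. The 3 root markers, the 3 shoot meristem markers and the senescence marker SAG12 had 0 counts in all 6 libraries, and 2 of 5 flower markers had counts, with summed levels of at most 0.346 CPM. Markers of leaf cells were present at both times. The 3 mesophyll markers summed to 26545 to 28508 CPM at 24 h against 13898 to 15012 CPM at 12 h, and these include LHCB3, itself an antenna gene. The others, RBCS1A and CA1, were not called in the other deposited matrix (adjusted p = 0.734 and 0.0541). RBCS1A was also not called with library totals alone (0.175). The 5 epidermis and guard cell markers summed to 66.8 to 75.3 CPM at 24 h against 44.0 to 54.4 CPM at 12 h. Of these ATML1, KAT1 and SLAC1 were higher at 24 h, whereas MYB60 (log2 fold change -0.48, adjusted p = 0.0105) and HT1 (-0.73, adjusted p = 0.016) were lower. The groups of SLAC1 overlapped, and its call was lost in a fit of the 6 libraries alone (0.0868) and with library totals alone (0.168). MYB60 was also not called in the fit of the 6 libraries alone (0.0557). SLAC1, MYB60 and HT1 each lost their call in 2 of 6 fits that left out 1 library. The 2 phloem companion cell markers summed to 529 to 574 CPM at 24 h against 376 to 385 CPM at 12 h, and the trichome marker GL2 lay at 1.07 to 1.56 CPM at 24 h against 0.375 to 1.08 CPM at 12 h. The part of cell composition in the results below was not tested.

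Most of the leaf transcriptome differed between the 2 times. Of the 21241 genes tested, 13328 (62.7%) passed an adjusted p of 0.05 in the quasi-likelihood test of edgeR, adjusted after Benjamini and Hochberg over all genes tested, the source of every adjusted p below unless another is named. They divided almost evenly, with 6638 higher at 24 h (31.3% of genes tested) and 6690 lower (31.5%). By the fitted value, changes of at least 2-fold were found for 3233 genes higher at 24 h (15.2%) and 2742 lower (12.9%). Among them 181 of the higher genes had no count at 12 h and 126 of the lower genes had none at 24 h, and a fitted value is no bound for such a gene. Of the genes with counts at both times, 644 were at least 8-fold higher and 446 at least 8-fold lower. Taking 3 counts per library as the floor, 41 of the 181 and 30 of the 126 were also past 8-fold. All 3 libraries at 24 h lay above all 3 at 12 h for 7029 genes (33.1%), and below them for 7178 genes (33.8%). Because leaves were sequenced in bulk, fewer cells of a type and less RNA per cell cannot be told apart.

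The even split depends on the scaling between libraries, and abundant genes took a larger share of the 24 h libraries. The 44 nuclear genes of the antenna and photosystem list held 16.4% of all counts at 24 h (15.7% to 16.9%) and 1.92% at 12 h (1.81% to 1.99%), and the 100 most abundant genes held 31.6% at 24 h and 17.8% at 12 h. With TMM scaling, whose factors were 0.886 to 0.909 at 24 h and 1.14 to 1.18 at 12 h, the median log2 fold change of all genes was -0.02. With library totals alone the median was -0.39, and 14313 genes passed, 4335 higher and 9978 lower. Changes are given with TMM scaling, and the lists below are read against its background of 31.3% higher and 31.5% lower.

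The clock genes that accumulate around dawn and in the morning were mostly higher at 24 h. Of 14 genes of this day-phased list, 12 were higher and 1 was lower at 24 h, and the median log2 fold change was 5.17. CCA1 (AT2G46830) measured 185, 188 and 196 CPM at 24 h against 1.01, 0.647 and 0.719 CPM at 12 h (log2 fold change 7.93, SE 0.33, adjusted p = 1.29e-26). Its partner LHY (AT1G01060) measured 20.2, 17.1 and 21.3 CPM at 24 h against 0.457, 0.613 and 0.703 CPM at 12 h (log2 fold change 5.02, SE 0.52, adjusted p = 2.37e-12). For both genes the libraries of the 2 times were far apart and close to each other within a time. The SE given with each log2 fold change was derived from the test statistic, as set out with the processing. PRR9 (AT2G46790), the first of the pseudo-response regulators in the day, measured 84.8, 95.1 and 86.9 CPM at 24 h against 0, 0.0681 and 0.0654 CPM at 12 h (log2 fold change 10.76, SE 0.62, adjusted p = 9.13e-21), and its 12 h values lay at or near the floor of 3 counts. PRR7 (AT5G02810), which follows it, measured 269, 289 and 290 CPM at 24 h against 7.98, 6.43 and 6.83 CPM at 12 h, and its log2 fold change was 5.32 (SE 0.11, adjusted p = 2.79e-44).

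The LNK genes, whose proteins are co-activators that bind Myb-type factors of the RVE family, all rose. LNK1 (AT5G64170) measured 258, 267 and 272 CPM at 24 h against 0.663, 0.272 and 0.735 CPM at 12 h, with a log2 fold change of 8.91 (SE 0.22). LNK2, LNK3 and LNK4 rose by 5.66, 7.50 and 6.41 on the log2 scale. The RVE genes themselves divided. RVE7, RVE1, RVE8 and RVE6 had log2 fold changes of 4.75, 2.87, 2.42 and 1.44, all past the threshold, although RVE8 missed it in the other deposited matrix (0.97, adjusted p = 0.107). RVE4 did not differ past the threshold (0.01, SE 0.14, adjusted p = 0.945) and was called lower with library totals alone (-0.36, adjusted p = 0.0115). RVE2 (AT5G37260), also a Myb-type factor, went the other way, at 5.35, 2.22 and 2.47 CPM at 24 h against 124, 119 and 119 CPM at 12 h (log2 fold change -5.17, SE 0.25, adjusted p = 3.96e-24).

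The evening-phased genes were mostly lower at 24 h. Of 16 genes in this list, 11 were lower and 3 were higher at 24 h, and the median log2 fold change was -2.63, and with library totals alone 12 were lower and 1 was higher. TOC1 (AT5G61380), the evening member of the pseudo-response regulators, measured 10.9, 13.0 and 11.2 CPM at 24 h against 147, 126 and 123 CPM at 12 h (log2 fold change -3.50, SE 0.10, adjusted p = 8.9e-38). All 3 components of the evening complex fell, ELF3 by 2.39, ELF4 by 3.40 and LUX by 2.5 on the log2 scale. BOA (AT5G59570), a close relative of LUX, measured 0.384, 0.342 and 0.124 CPM at 24 h against 31.8, 27.4 and 26.4 CPM at 12 h, the largest fall in the list (log2 fold change -6.61, SE 0.29). JMJ30, COR27, COR28, PRR3, FKF1 and GRP7 fell too, with log2 fold changes of -5.63, -4.97, -4.81, -3.91, -2.77 and -2.08. GRP7 (AT2G21660), an RNA-binding protein that feeds back on its own transcript, measured 140, 132 and 132 CPM at 24 h against 516, 607 and 578 CPM at 12 h.

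Members of the evening list that did not fall were GI, ZTL, LKP2, PRR5 and GRP8. GI (AT1G22770), which stabilises the blue-light receptor ZTL, measured 71.2, 92.9 and 79.9 CPM at 24 h against 1.46, 1.5 and 0.964 CPM at 12 h (log2 fold change 5.97, SE 0.29, adjusted p = 2.24e-24). ZTL rose by 0.52 (SE 0.08), but it missed the threshold with library totals alone (0.14, adjusted p = 0.0887) and in the other deposited matrix (0.63, adjusted p = 0.701). LKP2, a relative of ZTL, rose by 0.36 (SE 0.11), but with library totals alone it had -0.02 and an adjusted p of 0.903. PRR5 measured 7.67, 15.4 and 10.6 CPM at 24 h against 9.51, 8.82 and 10.1 CPM at 12 h, and the groups overlapped (log2 fold change 0.24, SE 0.18, adjusted p = 0.247). It passed the threshold without replicate 1 of 24 h (0.46, adjusted p = 0.0324). GRP8 did not pass either (0.13, SE 0.09, adjusted p = 0.228), but it was called higher without replicate 3 of 12 h (0.22, adjusted p = 0.0481) and lower with library totals alone (-0.26, adjusted p = 0.0112).

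**Figure D1:**
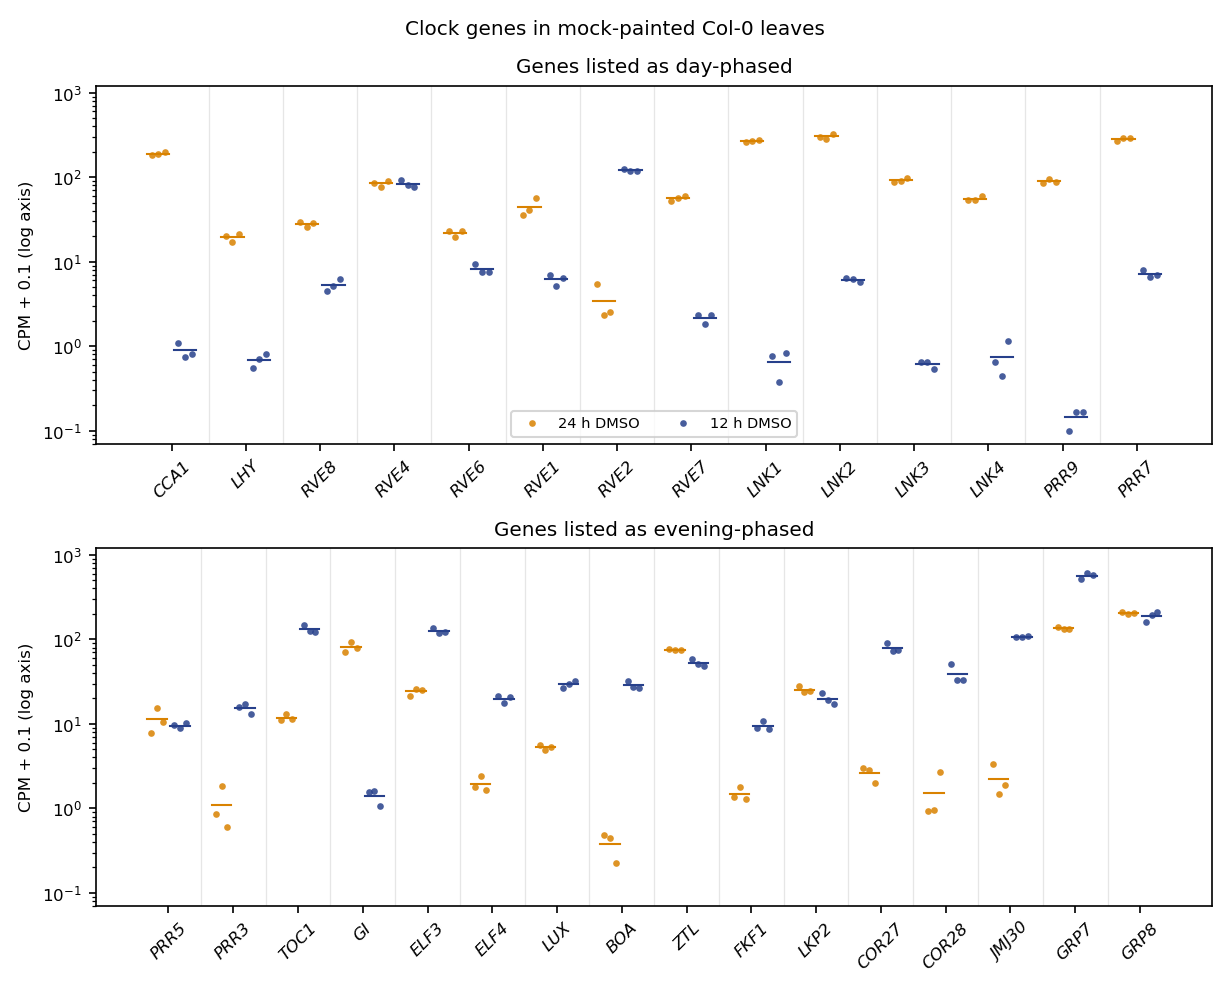
CPM of clock genes in each Col-0 DMSO library on a log axis (CPM + 0.1), with 24 h left of 12 h for each gene, a point for each library and a bar for the mean of 3. CCA1 stood at 185 to 196 CPM at 24 h against 0.647 to 1.01 CPM at 12 h, while TOC1 stood at 10.9 to 13.0 CPM at 24 h against 123 to 147 CPM at 12 h.

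The sequences upstream of the clock genes were read to show where the motifs of this literature lie beside the measured change. The evening element AAAATATCT, searched on both strands in the 300 bases before the annotated gene start (RefSeq, TAIR10.1), was present for 8 of 16 evening-phased genes and 1 of 14 day-phased genes (RVE7), against 2.98% of 20987 tested genes with such a window. The G-box CACGTG, which reads the same on both strands, was present for 2 of the 16 and 7 of the 14, against 7.96% of all. No motif searched lies inside another. The stretches that hold it in the 8 evening-phased genes follow, with up to 20 bases on either side, in lower case with the evening element in capitals on either strand. PRR5 (chr5:8358705-8358846, minus strand) and GRP8 (chr4:18275217-18275248, minus strand) did not differ past the threshold.
PRR5: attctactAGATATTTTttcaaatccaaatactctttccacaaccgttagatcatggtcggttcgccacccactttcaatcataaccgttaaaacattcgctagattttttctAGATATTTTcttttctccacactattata
GRP8: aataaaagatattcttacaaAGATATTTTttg

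The other 6 stretches belong to genes that fell, TOC1 (chr5:24674792-24674840, plus strand), LUX (chr3:17182969-17183017, plus strand), BOA (chr5:24003825-24003873, plus strand), FKF1 (chr1:25508433-25508481, plus strand), COR27 (chr5:17199911-17199969, minus strand) and GRP7 (chr2:9266560-9266653, minus strand). GRP7 holds 3 copies within 96 bases of its start and COR27 holds 2.
TOC1: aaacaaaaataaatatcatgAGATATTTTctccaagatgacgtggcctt
LUX: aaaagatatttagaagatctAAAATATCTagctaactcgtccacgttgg
BOA: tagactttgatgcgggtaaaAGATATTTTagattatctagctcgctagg
FKF1: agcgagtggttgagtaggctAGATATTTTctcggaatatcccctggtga
COR27: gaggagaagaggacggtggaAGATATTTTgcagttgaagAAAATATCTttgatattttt
GRP7: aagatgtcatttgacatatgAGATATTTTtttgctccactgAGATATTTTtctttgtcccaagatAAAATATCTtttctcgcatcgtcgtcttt

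The 7 day-phased genes with the G-box were CCA1, LHY, RVE1, LNK3, PRR9, PRR7 and RVE2, of which RVE2 fell and the other 6 rose. Shown with the G-box in capitals are CCA1 (chr2:19245378-19245423, plus strand), LHY (chr1:37926-37971, minus strand) and PRR9 (chr2:19232343-19232460, plus strand), which lead the morning, and RVE2 (chr5:14753226-14753271, minus strand), which went the other way.
CCA1: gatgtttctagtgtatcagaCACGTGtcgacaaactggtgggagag
LHY: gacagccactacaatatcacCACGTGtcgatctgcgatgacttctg
PRR9: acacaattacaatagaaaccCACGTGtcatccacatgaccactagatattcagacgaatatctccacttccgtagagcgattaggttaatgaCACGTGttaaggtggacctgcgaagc
RVE2: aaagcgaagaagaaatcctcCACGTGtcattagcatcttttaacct

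Over all genes with a window, the evening element was found for 3.54% of those at least 2-fold higher at 24 h by the fitted value and 3.49% of those at least 2-fold lower. The G-box was found for 11.8% of the higher and 6.36% of the lower genes. The CCA1-binding site AAAAATCT was found for 9.13% of the higher and 7.54% of the lower genes, against 7.91% of all, and the telo box AAACCCTA for 2.70% and 3.64%, against 4.44%. The I-box GATAAG was found for 15.9% of the higher and 15% of the lower genes, against 14.8% of all, and the sugar-starvation element TATCCA for 18.4% and 16.4%, against 16.7%. These shares describe letters in a window and were not tested.

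Genes of photoperiod and light signalling were mostly higher at 24 h. Of 36 genes, 24 were higher and 5 were lower, with a median log2 fold change of 1.18, and with library totals alone 23 were higher and 9 lower. The highest were BBX18, a B-box factor of seedling light responses, ELIP1, a light-stress protein of the thylakoid, and CDF1, a repressor of the flowering regulator CO. CDF1 (AT5G62430) measured 45.1, 43.2 and 51.3 CPM at 24 h against 0.549, 0.204 and 0.686 CPM at 12 h (log2 fold change 6.6, SE 0.26). CO (AT5G15840) itself, which promotes flowering in long days, moved the other way, at 0.277, 0.363 and 1.01 CPM at 24 h against 7.22, 11.8 and 12.8 CPM at 12 h (log2 fold change -4.29, SE 0.42, adjusted p = 1.96e-13). COL9, a CO-like gene, fell by 5.67 (SE 0.24) and HY5, a bZIP factor of the light response, by 1.02 (SE 0.21). HY5 had an adjusted p of 0.0726 in the other deposited matrix.

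The nuclear genes of the photosynthetic antenna and photosystems rose nearly as a whole. Of 44 genes, 43 were higher at 24 h and 1 was lower, and the median log2 fold change was 3.12, while the median of all genes was -0.02. LHCB2.1 (AT2G05100), a light-harvesting protein of photosystem II, measured 6041, 5449 and 5959 CPM at 24 h against 5.35, 3.2 and 4.31 CPM at 12 h (log2 fold change 10.41, SE 0.26, adjusted p = 7.95e-37). LHCB2.2 and LHCB2.3 had log2 fold changes of 10.49 and 10.34. The LHCB2 genes are near-identical copies, so reads may have been split or shared between them and each single value is uncertain. The exception was LHCB4.3, at 8.16, 19.5 and 14.9 CPM at 24 h against 27.1, 20.5 and 18.4 CPM at 12 h (log2 fold change -0.63, SE 0.25, adjusted p = 0.0285). Its groups overlapped, and it missed the threshold without replicate 1 of 24 h (adjusted p = 0.261), without replicate 1 of 12 h (0.161), in the other deposited matrix and in a fit of the 6 libraries alone.

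Chlorophyll synthesis moved with the antenna. Of 19 genes, 16 were higher and 2 were lower, with a median log2 fold change of 1.74. CHLH (AT5G13630), the large subunit of the magnesium chelatase that opens the chlorophyll branch, measured 3022, 3193 and 3312 CPM at 24 h against 142, 129 and 134 CPM at 12 h (log2 fold change 4.56, SE 0.08, adjusted p = 1.37e-48). CAO, which makes chlorophyll b, rose by 5.54 (SE 0.18) and PORA, a light-dependent protochlorophyllide reductase, by 7.45 (SE 0.62). HEMB1 and GSA1, enzymes of the early steps shared with haem, had small falls of 0.34 (SE 0.05) and 0.27 (SE 0.06), and HEMB1 missed the threshold in the other deposited matrix (adjusted p = 0.232).

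The Calvin cycle, which fixes carbon, changed less. Of 21 genes, 16 were higher and 2 were lower, with a median log2 fold change of 0.55. In the other deposited matrix 11 were higher and 2 lower, and with library totals alone 13 were higher and 4 lower. The plastid aldolase FBA1 measured 2286, 2645 and 2475 CPM at 24 h against 782, 712 and 715 CPM at 12 h (log2 fold change 1.75, SE 0.09), and the Rubisco activase RCA rose by 1.3 (SE 0.08). RBCS1B, a small subunit of Rubisco, had 1387, 1744 and 1552 CPM at 24 h against 2333, 2162 and 2232 CPM at 12 h (log2 fold change -0.52, SE 0.10). GAPA2 rose by 1.24 (SE 0.16) and GAPA1 had -0.17 (SE 0.06, adjusted p = 0.00847). The RBCS and GAPA genes have close copies that may share reads, and GAPA1 missed the threshold without replicate 1 of 24 h (adjusted p = 0.0745) or of 12 h (0.104) and in a fit of the 6 libraries alone (0.0954). Genes encoded in the chloroplast held only 0.131% of all counts at 24 h and 0.113% at 12 h. Those encoded in mitochondria held 0.0133% at 24 h and 0.033% at 12 h. Organelle RNA was thus a small remainder in these libraries, and its values may not follow its level in the leaf. Of 95 chloroplast genes tested, 3 passed, each lower at 24 h, and the median was -0.07. Of 78 mitochondrial genes tested, 18 passed, each lower at 24 h, and the median was -0.83. Among all genes tested 31.5% were lower.

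**Figure D2:**
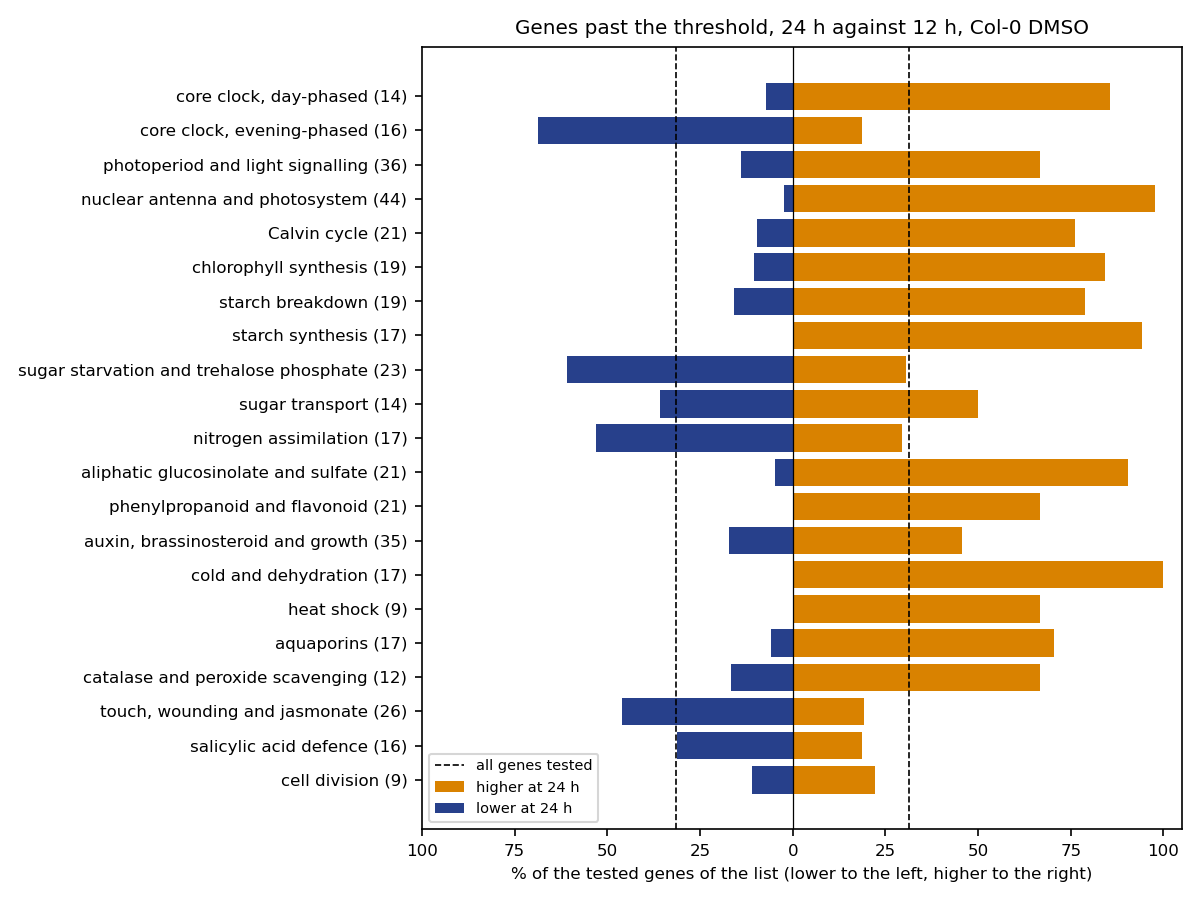
Percent of the tested genes of each list that were higher or lower at 24 h than at 12 h in Col-0 DMSO leaves, past an adjusted p of 0.05, with dashed lines at the shares of all genes tested (31.3% higher, 31.5% lower). The antenna and cold lists lie near 100% higher, and the evening clock list has 68.8% lower.

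Starch genes were higher at 24 h on both the synthesis and the breakdown side. For synthesis, 16 of 17 genes were higher, with a median log2 fold change of 1.47. GBSS1 (AT1G32900), the starch synthase bound to the granule, measured 142, 138 and 149 CPM at 24 h against 0.640, 0.272 and 0.392 CPM at 12 h (log2 fold change 8.41, SE 0.34, adjusted p = 2.29e-27). APL3, a large subunit of ADP-glucose pyrophosphorylase, rose by 3.28 (SE 0.13), and ISA2, an isoamylase, by 2.92 (SE 0.10). ISA2 had a like value but a wide error in the other deposited matrix (2.94, adjusted p = 0.308). For breakdown, 15 of 19 genes were higher and 3 lower, with a median of 1.52. The amylase AMY3 measured 251, 305 and 279 CPM at 24 h against 42.0, 36.5 and 33.2 CPM at 12 h (log2 fold change 2.90, SE 0.09), and the glucan phosphatase LSF2 rose by 2.83 (SE 0.12). The falling genes were BAM3, the main plastid beta-amylase, by 0.60 (SE 0.12), BAM4 by 0.40 (SE 0.11) and PWD, the phosphoglucan water dikinase, by 0.30 (SE 0.07). PWD had a value of 0.05 in the other deposited matrix (adjusted p = 0.939). BAM5 rested on few counts, and its call (log2 fold change 3.67, SE 1.43, adjusted p = 0.0233) was lost without replicate 2 of 24 h (0.0747), replicate 1 of 12 h (0.0802) or replicate 3 of 12 h (0.0674), in the other deposited matrix (0.0516) and with counts divided by 4 (0.0588).

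Genes known to rise when sugar runs short, listed together with trehalose phosphate synthase genes, leaned lower at 24 h in the wild type. The list is mixed, so its counts and median do not measure starvation genes alone. Of 23 tested genes of 24 in the sugar starvation and trehalose phosphate list, 14 were lower and 7 higher, with a median log2 fold change of -1.49. SEN1 (AT4G35770), a gene induced by darkness and ageing, measured 29.7, 34.3 and 51.1 CPM at 24 h against 448, 347 and 265 CPM at 12 h (log2 fold change -3.2, SE 0.40, adjusted p = 1.02e-09). DRM2, a dormancy-associated gene, fell by 3.29 (SE 0.20). DIN2, a beta-glucosidase gene induced in the dark, had -3.75 (SE 1.4, adjusted p = 0.019), but it missed the threshold without replicate 1 of 24 h (0.0749), replicate 2 of 24 h (0.0642) or replicate 1 of 12 h (0.0937) and in the other deposited matrix (0.0836). The genes that rose were led by TPS5 (3.00, SE 0.16) and TPS8 (1.59, SE 0.23), of the trehalose phosphate synthase family, and by DIN9 (1.36, SE 0.20). Sugar transporters divided, with 7 of 14 higher and 5 lower, against 5 higher and 6 lower with library totals alone. SWEET13, SWEET15 and SWEET17 rose by 7.71, 7.04 and 2.72, whereas SWEET12, STP13 and SWEET11 fell by 3.56, 1.98 and 1.75 on the log2 scale. SWEET11 and SWEET12 are the exporters that feed the phloem, and SWEET12 measured 9.48, 9.03 and 10.8 CPM at 24 h against 103, 131 and 109 CPM at 12 h.

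Nitrogen assimilation leaned to lower levels at 24 h. Of 17 tested genes of 18, 9 were lower and 5 higher, with a median log2 fold change of -0.23, with 8 lower and 3 higher in the other deposited matrix and 12 lower and 2 higher with library totals alone. NIA2 (AT1G37130), the main nitrate reductase, measured 849, 704 and 808 CPM at 24 h against 3294, 2983 and 2620 CPM at 12 h (log2 fold change -1.91, SE 0.15, adjusted p = 3.39e-16). UPM1, which makes the sirohaem of nitrite reductase, fell by 2.00 (SE 0.13) and the ammonium transporter AMT1.1 by 1.59 (SE 0.15). The rises were smaller, at 1.02 for LBD37, a repressor of nitrate genes, 0.77 for GLU1, the ferredoxin-dependent glutamate synthase, and 0.60 for the glutamine synthetase GLN1.3. GLN1.3 had 0.22 and an adjusted p of 0.229 with library totals alone.

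Genes of secondary metabolism were mostly higher at 24 h. In the list of aliphatic glucosinolate and sulfate genes, 19 of 21 were higher and 1 was lower, with a median log2 fold change of 2.51. CYP79F1 (AT1G16410), which commits elongated methionine to glucosinolates, measured 312, 281 and 193 CPM at 24 h against 0.823, 2.33 and 1.93 CPM at 12 h (log2 fold change 7.23, SE 0.46). It has a close copy, CYP79F2, so its level is uncertain. RNA of MYB76, a regulator of the pathway, and of AOP2, a gene of side-chain modification, rose by 7.51 (SE 0.65) and 6.36 (SE 0.50). Enzyme activity was not measured. APR3, which reduces activated sulfate, fell (log2 fold change -1.17, SE 0.28, adjusted p = 0.000342), with an adjusted p of 0.101 in the other deposited matrix. Of 21 tested phenylpropanoid and flavonoid genes of 23, 14 were higher and the other 7 did not pass. The fitted median was 2.71, and 1.84 when genes with no counts at 1 of the times were set to their bound. The anthocyanin regulator PAP1 had 3.75, 3.12 and 2.52 CPM at 24 h against 0 counts at 12 h, so it was at least 45.6-fold higher, taking 3 counts per library as the floor. F3H, an early flavonoid enzyme, rose by 5.59 (SE 0.37). MYB12, a flavonol regulator, was at most 0.342 CPM at 24 h with 0 counts at 12 h, at least 3.59-fold higher, and was not called without replicate 1, 2 or 3 of 12 h (adjusted p = 0.0531, 0.0604 and 0.0621) or by DESeq2 (0.15).

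Cold and dehydration genes all rose. All 17 genes in the list were higher at 24 h, with a median log2 fold change of 3.72. COR15A (AT2G42540), a protective chloroplast protein, measured 469, 426 and 445 CPM at 24 h against 21.1, 17.5 and 18.5 CPM at 12 h (log2 fold change 4.56, SE 0.21, adjusted p = 7.21e-25). RD29A rose by 5.58 (SE 0.21). CBF3, a factor that activates these genes in the cold, measured 10.7, 9.05 and 12.5 CPM at 24 h against 0, 0 and 0.261 CPM at 12 h. COR15A has a tandem copy, COR15B, that may share reads. Heat shock genes leaned the same way, with 6 of 9 higher and a median of 1.3, and with library totals alone 3 of 9 were higher. The small heat shock proteins varied between replicates, as HSP18.2 did at 59.1, 34.0 and 26.9 CPM at 24 h against 4.98, 1.5 and 5.38 CPM at 12 h (log2 fold change 3.35, SE 0.74, adjusted p = 0.000106).

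Growth and water channel genes were among those higher at 24 h. Of 35 tested auxin, brassinosteroid and growth genes of 37, 16 were higher and 6 lower, with a median log2 fold change of 0.30. EXPA8 (AT2G40610), an expansin that loosens cell walls, measured 136, 122 and 134 CPM at 24 h against 4.32, 2.5 and 4.12 CPM at 12 h (log2 fold change 5.17, SE 0.24). SAUR21, of a family of small auxin-induced proteins, rose by 6.04 (SE 0.33), and SAUR22, at 0 counts at 12 h, was at least 16.1-fold higher. SAUR19 to SAUR24 are near-identical, so single members are uncertain. XTH4, a wall-remodelling enzyme, moved the other way, at 6.84, 5.53 and 7.02 CPM at 24 h against 62.5, 63.5 and 68.5 CPM at 12 h (log2 fold change -3.33, SE 0.31). XTH33 had 0 counts at 24 h and was at least 8.59-fold lower, and GH3.3, which conjugates auxin, fell by 3.37 (SE 1.03). Of 17 aquaporins, 12 were higher and 1 was lower, with a median of 1.37, and with library totals alone 11 were higher and 3 lower. PIP2;1, a plasma membrane water channel, measured 912, 746 and 932 CPM at 24 h against 63.5, 64.2 and 64.0 CPM at 12 h (log2 fold change 3.76, SE 0.11). PIP1;5 fell (-0.33, SE 0.09, adjusted p = 0.00168).

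Of 12 catalase and peroxide-scavenging genes, 8 were higher and 2 lower at 24 h, with a median of 0.62, and in the other deposited matrix 4 were higher and 0 lower. CAT2 (AT4G35090), the leaf catalase of photorespiration, measured 2426, 2913 and 2693 CPM at 24 h against 494, 382 and 433 CPM at 12 h (log2 fold change 2.62, SE 0.17, adjusted p = 8.78e-19). The iron superoxide dismutase FSD1 rose by 1.52 (SE 0.17) and the copper-zinc enzyme CSD1 fell by 1.3 (SE 0.12), and both missed the threshold in the other deposited matrix (adjusted p = 0.161 and 0.566). CAT1 had -0.27 (SE 0.10, adjusted p = 0.0122), and it missed the threshold without replicate 1 of 24 h (0.262) or replicate 3 of 24 h (0.0711), in the other deposited matrix (0.0521) and in a fit of the 6 libraries alone (0.185).

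Touch, wounding and jasmonate genes leaned lower at 24 h. Of 26 genes, 12 were lower and 5 higher, with a median log2 fold change of -0.50, with 13 lower and 8 higher in a fit of the 6 libraries alone and 13 lower and 3 higher with library totals alone. TCH3 (AT2G41100), a calmodulin-like protein induced by touch, measured 25.9, 21.7 and 15.6 CPM at 24 h against 583, 397 and 434 CPM at 12 h (log2 fold change -4.48, SE 0.39, adjusted p = 2.47e-14). CML38 and CML37, also calmodulin-like, fell by 3.65 (SE 0.54) and 2.68 (SE 0.87). The jasmonate enzymes AOS and LOX2 and the storage protein VSP2 went the other way. AOS measured 303, 261 and 222 CPM at 24 h against 46.3, 59.5 and 55.4 CPM at 12 h (log2 fold change 2.29, SE 0.18), LOX2 rose by 1.22 (SE 0.34) and VSP2 by 7.30 (SE 1.59). VSP2 spread widely at 24 h, at 81.3, 26.1 and 22.2 CPM. Salicylic acid genes moved both ways and did not stand out from all genes tested. Of 16 genes, 5 were lower (31.25%), 3 were higher (18.75%) and 8 did not pass. Among all genes tested 31.5% were lower and 31.3% higher, so the list was near the background for falls and below it for rises. With library totals alone 7 were lower and 2 higher. SARD1, an activator of salicylic acid synthesis, WRKY54, a defence-related factor, and EDS5, a plastid transporter needed for that synthesis, fell by 3.58, 2.42 and 2.24 on the log2 scale. ICS1, the isochorismate synthase of the pathway, rose by 1.54 (SE 0.15) and PAD4 by 0.77 (SE 0.13). NPR1, the receptor, had 0.21 (SE 0.07, adjusted p = 0.00981), which was reversed at -0.17 with library totals alone and missed the threshold in the other deposited matrix (adjusted p = 0.116). Cell division genes were near the low end of detection, with 2 of 9 higher (22.2%, KNOLLE and CYCA2.3) and 1 lower (11.1%). Both shares lay below those of all genes tested. CYCA2.3 missed the threshold in the other deposited matrix (adjusted p = 0.0798). The lower gene, CDKB2.2, had an adjusted p of 0.0337 that was lost without replicate 1 of 24 h (0.0741), replicate 2 of 24 h (0.123), replicate 1 of 12 h (0.0583) or replicate 3 of 12 h (0.0667) and in the other deposited matrix (0.484).

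**Figure D3:**
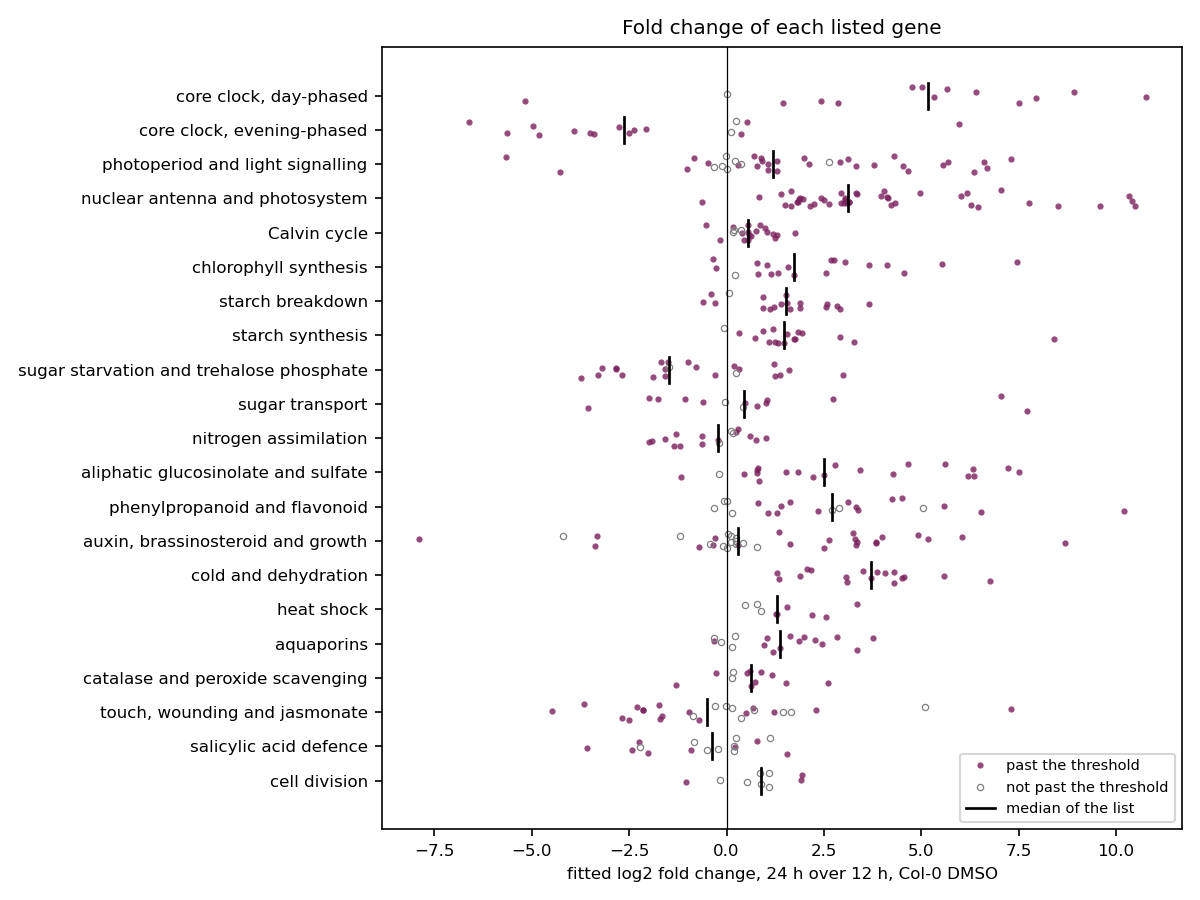
Log2 fold change at 24 h over 12 h of each tested gene in each list in Col-0 DMSO leaves, filled where the adjusted p was under 0.05, with a bar at the list's median. The median was 5.17 for the day-phased clock list and -2.63 for the evening-phased list, and the 17 cold genes all lie above 0.

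Ranked by the fitted value, the 12 highest and 12 lowest genes were mostly at or near 0 counts at 24 h or at 12 h. For a gene at 0 that rank is no measure of its change, and its bound can lie below the measured change of genes outside the 24, such as the 240-fold of CCA1. CIPK20, a protein kinase of calcium signalling, had 137, 194 and 174 CPM at 24 h against 0, 0 and 0.131 CPM at 12 h, the highest fitted value (log2 fold change 11.68, SE 0.35). With PRR9 and the 3 LHCB2 genes it made up those of the top 12 that had any count at 12 h. The others had 0 counts at 12 h and were higher by at least 86.2-fold (AT5G54470), 85.3-fold (BHLH28), 82.1-fold (AT4G33550), 80.1-fold (DOG1, a regulator of seed dormancy), 60.2-fold (AT3G55240), 59.8-fold (AT3G09450) and 54.8-fold (KCS17, of fatty acid elongation). On the falling side UCC2, a uclacyanin, had 0 counts at 24 h and 31.7, 5.75 and 7.68 CPM at 12 h, at least 203-fold lower. Also at 0 counts at 24 h were AT1G24807, at least 83.1-fold lower, PER33, at least 48.4-fold lower, AT4G16260, sks8, AT5G61610 and DMP1, the last 4 by at least 38.4-, 34.4-, 33.4- and 31.8-fold. PER33, a peroxidase, was not called by DESeq2 (adjusted p = 0.0869). AT1G27020 had the highest 12 h levels of the 12 lowest genes, at 0.852, 0.406 and 1.28 CPM at 24 h against 214, 193 and 209 CPM at 12 h (log2 fold change -7.94, SE 0.59). ACT (AT5G61160), PER4, CHX17 and AT4G11170 completed that list, with log2 fold changes of -8.99, -8.03, -7.45 and -7.22. Whether counting used strand is not given in the sources used here, so reads of a gene and of an overlapping or antisense partner cannot be told apart.

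The change over these 12 h ran the same way in the mock leaves of both lines, which are other libraries. In icals3m 11800 genes passed between 24 h and 12 h (55.6%), 5947 higher (28.0%) and 5853 lower (27.6%), and in PD-plug 12630 did (59.5%), 6284 higher (29.6%) and 6346 lower (29.9%). With library totals alone the splits were 3280 higher and 10591 lower in icals3m and 3702 higher and 10461 lower in PD-plug. Of the 13328 genes called in Col-0, 12331 (92.5%) had the same sign in icals3m and 13007 (97.6%) in PD-plug. A call with the same sign was found for 9760 (73.2%) in icals3m, 11099 (83.3%) in PD-plug and 9318 (69.9%) in both. Opposite calls numbered 237 in icals3m and 26 in PD-plug. Among the 5975 genes changed at least 2-fold in Col-0, 96.3% had the same sign in icals3m and 98.8% in PD-plug. Across the 17301 genes with a mean of at least 1 CPM, the log2 fold changes correlated with those of Col-0 at r = 0.881 in icals3m and 0.942 in PD-plug, a description across genes, which are not independent. The median size of the log2 fold change over the genes called in Col-0 was 0.64 in icals3m and 0.76 in PD-plug, and 0.90 in Col-0, whose values had chosen these genes.

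**Figure D4:**
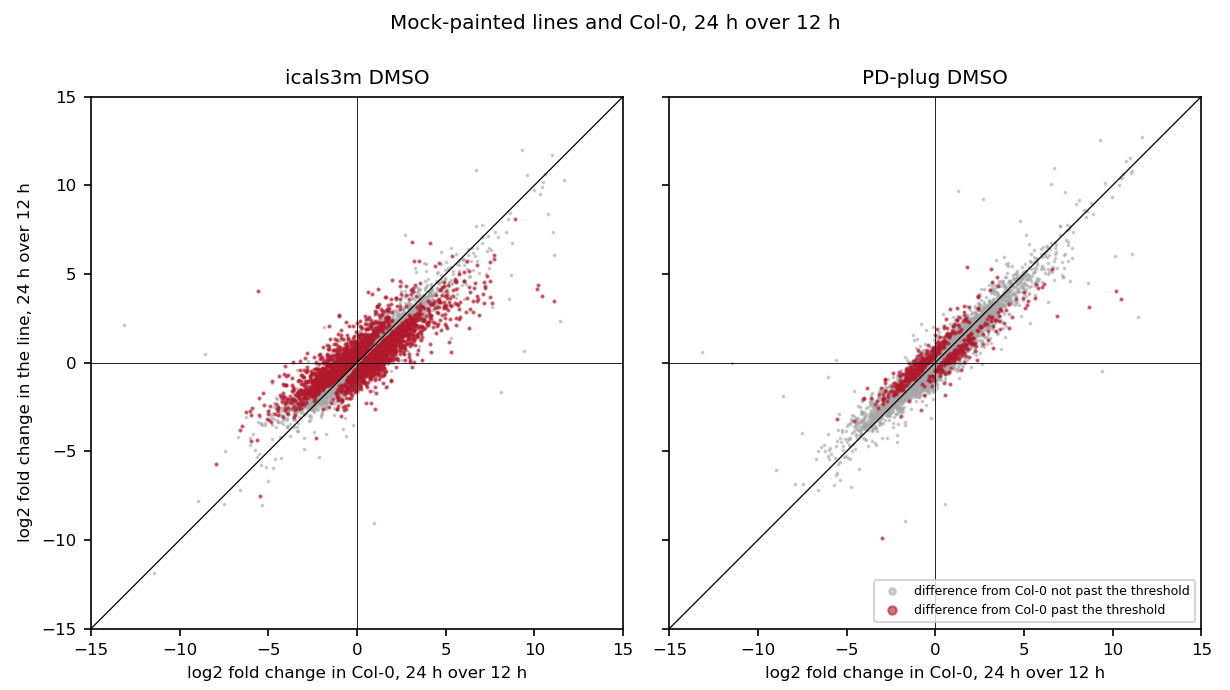
Log2 fold change at 24 h over 12 h in icals3m and in PD-plug DMSO leaves (vertical) against that in Col-0 DMSO leaves (horizontal), a point for each of 17301 genes, red where the difference from Col-0 had an adjusted p under 0.05. The correlation across genes was 0.881 for icals3m and 0.942 for PD-plug.

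The core clock genes called in Col-0 moved alike in sign in the 3 genotypes. All 12 day-phased genes called higher in Col-0 were called higher in both lines and RVE2 was called lower in both. All 11 evening-phased genes called lower in Col-0 were called lower in both lines, and the 3 called higher were called higher in both. The mock lines nevertheless differed from Col-0 in the signed log2 change for many genes. A higher change here is a more positive one, which for a gene that fell in Col-0 is a smaller fall or a rise. In a test of the difference itself, 4251 genes (20.0%) passed for icals3m, 2246 with a higher (10.6%) and 2005 with a lower (9.44%) log2 change than in Col-0, and 592 genes (2.79%) passed for PD-plug, 382 higher (1.8%) and 210 lower (0.989%). With library totals alone icals3m had 1827 higher and 2431 lower, and PD-plug 305 higher and 374 lower. Of the evening-phased list, 7 genes passed, each with a more positive log2 change in icals3m than in Col-0. Among them TOC1, PRR3, ELF3, COR27 and GRP7 fell less in icals3m, as TOC1 did at -2.98 against -3.50 in Col-0. The others were PRR5 and GRP8, neither called in Col-0. Of the day-phased list 1 had a higher and 4 a lower log2 change. PRR5 had log2 fold changes of 2.00 in icals3m, 1.07 in PD-plug and 0.24 in Col-0, and the difference passed for icals3m (1.76, adjusted p = 1.03e-06) and not for PD-plug (0.82, adjusted p = 0.0728). LHY had 3.1 in icals3m and 5.02 in Col-0 (difference -1.93, adjusted p = 0.0265). CALS3, the callose synthase gene behind the icals3m construct, averaged 171 CPM at 24 h in icals3m DMSO leaves, where its 12 h mean was 231 CPM. In Col-0 it averaged 93.6 CPM at 24 h against 83.2 CPM at 12 h, and its part in these differences was not tested.

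A few lists in which most differences had the same sign, chosen after their values were seen, are given with both lines. Among all genes tested, 9.44% passed with a lower change than in Col-0 in icals3m and 0.989% in PD-plug. Other lists also leaned lower in icals3m, such as antenna and photosystem (7 of 44 lower, 0 higher) and starch synthesis (6 of 17 lower, 0 higher). In cold and dehydration, 9 of 17 genes passed, each with a lower log2 change in icals3m than in Col-0, with medians of 2.82 in icals3m, 3.38 in PD-plug and 3.72 in Col-0. COR15A rose by 2.82 in icals3m, by 3.75 in PD-plug and by 4.56 in Col-0 (difference of icals3m from Col-0 -1.74, adjusted p = 1.39e-06). In the glucosinolate list 12 of 21 genes passed, each with a lower change in icals3m, with medians of 1.26 in icals3m, 2.46 in PD-plug and 2.51 in Col-0. In the Calvin cycle list 12 of 21 passed, again each lower in icals3m, with medians of 0.40 in icals3m, 0.47 in PD-plug and 0.55 in Col-0. For PD-plug, 2 genes of the glucosinolate list passed this test, each with a lower change than in Col-0.

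Of the 21 lists, that of sugar starvation and trehalose phosphate had the most opposite calls. Of its 14 genes lower at 24 h in Col-0, 3 were called lower in icals3m and 10 in PD-plug, and 5 of the list had an opposite call in icals3m and 1 in PD-plug. The median log2 fold change was 0.38 in icals3m, -0.08 in PD-plug and -1.49 in Col-0. The difference from Col-0 passed for 15 genes with a higher and 1 with a lower change in icals3m, and for 10 genes in PD-plug, each higher. Among all genes tested, 10.6% passed with a higher change in icals3m and 1.8% in PD-plug. SEN1 averaged 131 CPM at 24 h against 178 CPM at 12 h in icals3m, 72.8 CPM at 24 h against 285 CPM at 12 h in PD-plug, and 38.4 CPM at 24 h against 354 CPM at 12 h in Col-0. Its log2 fold change was -0.44 in icals3m and -3.2 in Col-0, and the difference was 2.77 (adjusted p = 9.54e-05). ASN1 (AT3G47340), an asparagine synthetase induced in the dark and named here after its values were seen, averaged 165 CPM at 24 h against 39.8 CPM at 12 h in icals3m, and 29.8 CPM at 24 h against 89.4 CPM at 12 h in Col-0 (difference of log2 changes 3.64, SE 0.58, adjusted p = 3.78e-06). Leaving out replicate 1 of 12 h in PD-plug lowered the 592 genes that differed from Col-0 to 334. Other single libraries whose removal lowered the count by over 1.5 times were PD-plug 12 h replicate 2 (358), Col-0 12 h replicate 1 (366) and Col-0 24 h replicate 2 (374).

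Leaves harvested 24, 48 and 72 h after painting were whole days apart, yet their levels were not alike. Between 48 h and 24 h, 5759 genes (27.1%) passed in Col-0 DMSO leaves, 2897 higher (13.6%) and 2862 lower (13.5%) at 48 h, and with library totals alone the split was 3585 higher and 2238 lower. The comparison shares its 24 h libraries with the one above. CCA1 averaged 0.79 ± 0.19 CPM at 12 h, 190 ± 5.89 CPM at 24 h, 14.7 ± 1.32 CPM at 48 h and 2.31 ± 0.43 CPM at 72 h (SD, n = 3 each). TOC1 averaged 132 ± 13 CPM at 12 h, 11.7 ± 1.14 CPM at 24 h, 229 ± 21.4 CPM at 48 h and 349 ± 14.6 CPM at 72 h. GRP7 averaged 567 ± 46.7, 135 ± 4.24, 3966 ± 350 and 4204 ± 214 CPM at 12, 24, 48 and 72 h. By these means CCA1 was lower, and TOC1 and GRP7 were higher, at 48 and 72 h than at 24 h.

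PRR5, which did not pass between 24 h and 12 h, stood at 9.46 ± 0.62, 11.2 ± 3.9, 202 ± 20.6 and 80.0 ± 8.37 CPM at 12, 24, 48 and 72 h. GI stood at 1.31 ± 0.30, 81.3 ± 10.9, 258 ± 29.9 and 169 ± 29.7 CPM, and LHCB2.1 at 4.29 ± 1.07, 5816 ± 321, 1646 ± 130 and 265 ± 23.8 CPM. These 2 genes stayed above their 12 h level at all 3 later times. SEN1 fell to 38.4 ± 11.3 CPM at 24 h, against 354 ± 91.2 CPM at 12 h, and stood at 26.1 ± 10.2 CPM at 48 h and 22.2 ± 16.4 CPM at 72 h. COR15A stood at 19.0 ± 1.86, 447 ± 21.4, 1624 ± 212 and 2270 ± 341 CPM at 12, 24, 48 and 72 h. The hour of harvest of each time is not given in the sources used here, so whether 24, 48 and 72 h share an hour of day was not tested.

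**Figure D5:**
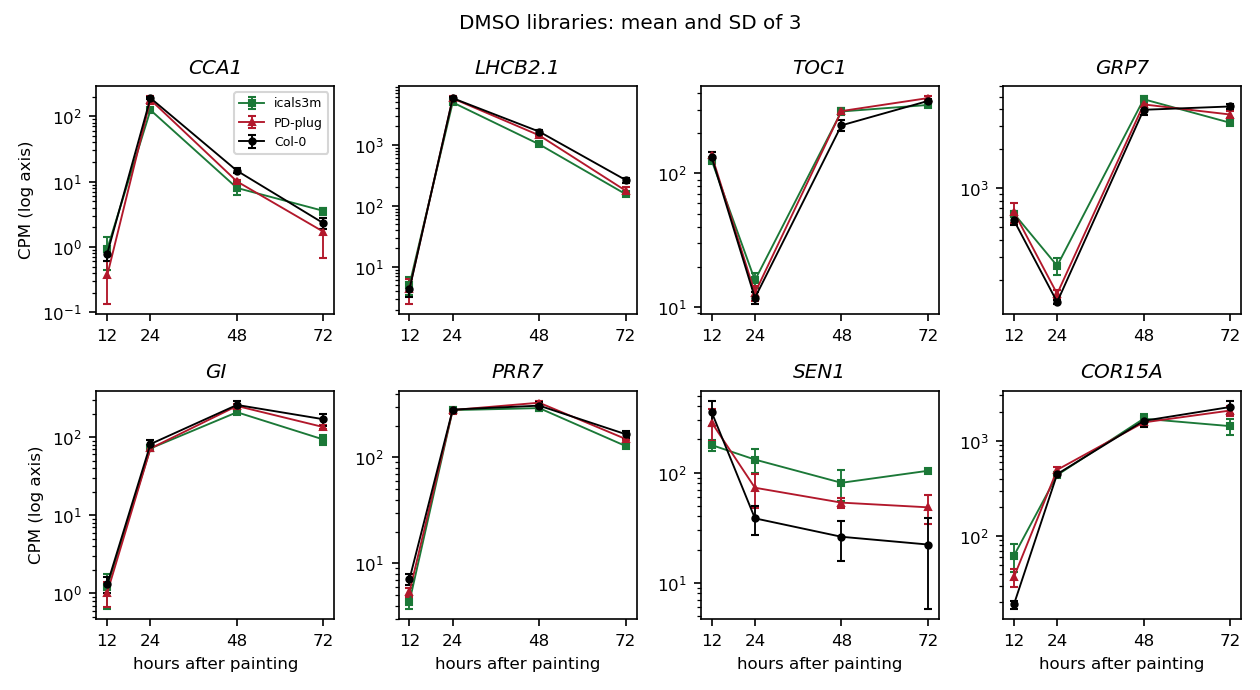
Mean CPM ± SD of 3 DMSO libraries at 12, 24, 48 and 72 h after painting in Col-0, icals3m and PD-plug for 8 genes, on log axes. CCA1 of Col-0 peaked at 24 h at 190 CPM, TOC1 was lowest there at 11.7 CPM, and SEN1 at 24 h was 131 CPM in icals3m, 72.8 CPM in PD-plug and 38.4 CPM in Col-0.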

How the data were processed

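RNA from 18 mock libraries at 12 h and 24 h (3 genotypes, 3 replicates each), and from the mock leaves of these genotypes at 48 and 72 h, was analysed from the whole-series matrix of expected counts that the authors deposited, with 72 columns and a column for each sample. The submitters' processing notes name the build TAIR10 and FastQC 0.11.8, Trim Galore 0.5.0, cutadapt 1.7, HISAT2 2.1.0, STAR 2.5, SAMtools 1.4.1 and StringTie 1.3.3, without roles. The counting program and strand setting are not given in the sources used here. The deposited counts are whole numbers in which multiples of 4 are in excess (4 fills 40727 cells, 3 fills 8585 and 5 fills 10399), so a count need not be 1 fragment. Depths stand in the report.

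The filter on low counts was filterByExpr (minimum count 10 and minimum total 15), scaling was by TMM, and genes were fitted in edgeR 4.0.16 (R 4.3.3, limma 3.58.1) as 24 group means over all 72 libraries, with 48 residual degrees of freedom and robust quasi-likelihood tests. P-values were adjusted by Benjamini-Hochberg over 21241 genes. CPM uses TMM-scaled totals. Each SE is the size of the log2 value divided by the square root of the F statistic of the quasi-likelihood test. It restates that test and is not a separate estimate of spread. The code was tested on simulated data in which few genes changed, so that test does not bear on the scaling between libraries. Alternatives were the other deposited matrix of expected counts (named STAR), DESeq2 1.42.0, RLE factors, no filter, a replicate block, only the libraries compared, leaving out each library and, chosen after seeing the data, counts divided by 4 and library totals alone.

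The genes and lists were chosen with earlier results of these data known. Named were all clock genes, the 3 highest and 3 lowest called members of each other list, the 12 highest and 12 lowest of all genes (mean CPM of at least 1, groups not overlapping) and the 3 highest and 3 lowest differences of each line from Col-0. Upstream windows came from RefSeq's TAIR10.1.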

Additional observations from a re-analysis of the deposited data

Results flagged for a closer look

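The change between 24 h and 12 h in mock leaves differed from that in Col-0 for 4251 genes in icals3m and for 592 genes in PD-plug, by edgeR's test of the difference itself. Most genes at the ends of these comparisons had low levels, and 8 of the 12 lost the call under some alternative.

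In icals3m against Col-0, the largest log2 differences with counts in every group were 9.65 for CPuORF31 (AT1G48598) and -15.95 for AT5G52550. CPuORF31 owed its level to single libraries, with 9.53 CPM in icals3m replicate 3 at 24 h and 10.3 CPM in Col-0 replicate 2 at 12 h, and at most 0.552 CPM in the other 10 libraries. AT5G52550 had 10.7 CPM in icals3m replicate 3 at 12 h and at most 0.0865 CPM in the other icals3m libraries, and it had 0, 0.811 and 4.05 CPM in Col-0 at 24 h. The call of CPuORF31 was lost in 4 of 20 alternatives and that of AT5G52550 in 1 of 19, without that icals3m replicate 3 at 12 h (adjusted p = 0.268). The other 4 genes had a group at 0 counts, so their adjusted p is given. UCC2 (adjusted p = 0.0242) averaged 0.0599 CPM at 24 h and 1.11 CPM at 12 h in icals3m, against 0 at 24 h and 15.1 CPM at 12 h in Col-0. It missed the threshold in 7 of 20 alternatives, among them the STAR matrix (0.0811), DESeq2 (0.056), only the libraries compared (0.203) and counts divided by 4 (0.145). AT5G61610 (adjusted p = 0.00383) averaged 0.329 CPM at 24 h and 1.29 CPM at 12 h in icals3m, against 0 and 2.48 CPM in Col-0, and it missed the threshold in the STAR matrix (0.108). AT5G54470 (adjusted p = 0.00101) averaged 1.68 CPM at 24 h and 0.151 CPM at 12 h in icals3m, against 5.91 CPM and 0 in Col-0. AT3G09450 (adjusted p = 0.00816) averaged 0.786 CPM at 24 h and 0.0666 CPM at 12 h in icals3m, against 4.1 CPM and 0 in Col-0.

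In PD-plug against Col-0, the log2 differences were 2.43 for GRXS13 (AT1G03850), a glutaredoxin, 2.34 for FLOT1 (AT5G25250), a flotillin, and 2.18 for AT1G02660. GRXS13 (adjusted p = 0.0457) averaged 0.872 CPM at 24 h and 2.38 CPM at 12 h in PD-plug, against 0.379 CPM at 24 h and 5.61 CPM at 12 h in Col-0, where replicate 1 at 12 h had 10.4 CPM. It missed the threshold in 13 of 20 alternatives, with an adjusted p of 0.051 to 0.256, the highest without that replicate. FLOT1 (adjusted p = 0.0268) averaged 2.86 CPM at 24 h and 26.1 CPM at 12 h in PD-plug, against 1.06 CPM at 24 h and 49.2 CPM at 12 h in Col-0, and it missed the threshold in 7 of 20 alternatives (0.0512 to 0.0912). AT1G02660 (adjusted p = 0.0008), which passed in all 20, averaged 32.3 CPM at 24 h and 3.96 CPM at 12 h in PD-plug, against 17.1 CPM at 24 h and 9.59 CPM at 12 h in Col-0. KCS17 (adjusted p = 0.0168) averaged 2.67 CPM at 24 h and 0.223 CPM at 12 h in PD-plug, against 3.76 CPM and 0 in Col-0, and it missed the threshold in 5 of 20 alternatives (0.0513 to 0.13). AT5G40800 (adjusted p = 0.015) averaged 2.84 CPM at 24 h and 0.166 CPM at 12 h in PD-plug, against 3.17 CPM and 0 in Col-0, and it missed the threshold with counts divided by 4 (0.0875) and without PD-plug replicate 3 at 12 h (0.0527). AT3G50140 (adjusted p = 0.000556) averaged 0 at 24 h and 2.53 CPM at 12 h in PD-plug, against 0.208 CPM and 1.7 CPM in Col-0.

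The other deposited matrix has a row for mCherry, which no comparison above used. In PD-plug DMSO leaves its mean was 22.79 CPM of that matrix's library totals at 24 h (17.2, 19.1 and 32.1 CPM) and 103.7 CPM at 12 h (78.6, 113 and 120 CPM), and it had 0 counts in every icals3m and Col-0 DMSO library at these times. The part of transgene RNA in the differences between genotypes was not tested.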

How the results depend on the processing

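The counts of genes that differed between 24 h and 12 h stayed within 1.5 times their value under every alternative run (10121 to 14313 for Col-0), with leave-one-out ranges of 12526 to 12699 in Col-0, 10862 to 11207 in icals3m and 11813 to 12055 in PD-plug. In the STAR matrix the difference of icals3m from Col-0 passed for 2178 genes, that of PD-plug for 213, and 48 h against 24 h for 3356. When only the libraries being compared were fitted, PD-plug had 284. Leaving out 1 library gave 334 to 707 genes for PD-plug, 3183 to 4088 for icals3m and 4797 to 5383 for 48 h against 24 h. With the replicate block 13293 genes passed in Col-0, 11818 in icals3m and 12641 in PD-plug, with 4257 and 641 for the differences. The replicate numbers gave no sign of pairing, for which 3 libraries per group are weak ground. Departures from the group means in same-numbered libraries of 24 h and 12 h correlated at -0.023 to 0.036. Libraries of other numbers gave -0.053 to 0.048. The block changed no call of a named gene. Among 152 named gene results, 33 changed side or direction under some alternative. With library totals alone the sign changed for RVE4 (-0.365, adjusted p = 0.0115), GRP8 (-0.255, 0.0112) and NPR1 (-0.165, 0.0405), each past the threshold there. It also changed there for LKP2 (-0.016, 0.903), a value not past the threshold. In the STAR matrix it changed for PWD (0.049, 0.939) and CPuORF31 (-0.136 for icals3m minus Col-0, 0.997), neither past the threshold. The shift of -0.394 in the median of all genes is part of the construction of the totals-alone setting, and the cause of the other changes was not tested. Low counts limit genes with no counts at 1 of the times, whose fitted values are no bound.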
